A study of Homo sapiens with 9 samples.

Results

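CSF1R, the receptor for colony-stimulating factor 1, and its ligands CSF1 and IL34 were followed in SNU5, an established cell line from a human gastric carcinoma. The 3 genes were found by symbol among the 60880 gene IDs of the count tables, each at 1 Ensembl ID, and were chosen by their counts in the NR, SP and Ab libraries. Their own values are therefore given as a description, without a test. CSF1R is a receptor tyrosine kinase of the cell surface. It is known above all from monocytes, macrophages, microglia and osteoclasts, whose survival and growth depend on it, and from the placental trophoblast. CSF1 is made by many epithelial, stromal and endothelial cells, whereas IL34 is best known from keratinocytes and neurons. Ligand binding pairs 2 receptor chains, which then phosphorylate each other and recruit SRC-family kinases, PI3-kinase, phospholipase C and the GRB2-RAS-ERK route.

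The transcriptomic libraries were made from poly-A RNA of SNU5 cells treated for 24 h, and the question of the design was how the shape of a gold carrier for ramucirumab, a monoclonal antibody against VEGFR2, changes the response of the carcinoma cells. Cells of the NR group received AuNR-PEG-Ab, in which gold nanorods carry the antibody through a polyethylene glycol linker. The SP group received AuSP-PEG-Ab, the same construction on gold nanospheres, and the Ab group received ramucirumab alone. All 3 groups received the antibody at 8 μg/mL, and the 9 libraries were divided equally among them. Every group therefore contained the antibody. In a difference from Ab, the effects of the gold, of the linker and of the bound antibody cannot be told apart. All libraries came from 1 cell line. The labels do not say whether the libraries of a group came from separate cultures, so p-values measure the spread between these libraries, which may be technical.

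Totals of libraries 1, 2 and 3 were 25735410, 13863155 and 15943980 counts in NR, 21682836, 22914759 and 20601906 counts in SP, and 19566064, 26318227 and 21031024 counts in Ab. Levels are given as CPM, which are counts set to a common library total, after TMM scaling by the bulk of the genes. Where no read was counted, an expectation of at most 3 reads is still possible. These 3 counts are called the floor, at 0.113 to 0.216 CPM depending on the library. Mitochondrial genes took 4.36% to 4.66% of the counts in NR and SP libraries and 3.41% to 3.71% in Ab libraries.

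Libraries NR2 and NR3 stood apart from NR1 in a few genes. In 7 genes the CPM of both was more than 4-fold under the lowest of the other 7 libraries, among them KIT with 167, 1 and 0 counts and PDGFRA with 58, 0 and 0 counts in NR1, NR2 and NR3. CSF1R, CSF1 and IL34 were not among these genes, and where a call in NR against Ab changed with NR1 as its only library, this is given beside the gene. Library Ab3 held fewer collagen counts than Ab1 and Ab2, with COL1A2 at 198, 278 and 33 counts in Ab1, Ab2 and Ab3.

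On the GRCh37 build of the human genome, CSF1R (ENSG00000182578) lies on the minus strand at chr5:149432854-149492935. The annotation gives it 3 start sites of protein-coding transcripts, at 149492935, 149466117 and 149465990. The first is here called the distal and the second the proximal start, 26818 bases apart. Transcription from the distal start is known from trophoblast, and from the proximal one from macrophages. The promoters of both are shown because the gene has these alternative starts and because counts per gene cannot say which of them was used. Both sequences are from RefSeq on GRCh38.p14, read 5′ to 3′ on the minus strand from 250 bases before to 50 bases after the start that RefSeq gives, which need not be the same base as in the GRCh37 annotation, at chr5:150113316-150113615 for the distal and chr5:150086505-150086804 for the proximal window. Capitals mark matches to TGTGGT (the core bound by RUNX factors), GAGGAA (an ETS core with a purine-rich flank, as PU.1 binds) and TGAGTCA (an AP-1 site). Each was searched on both strands.
CSF1R distal: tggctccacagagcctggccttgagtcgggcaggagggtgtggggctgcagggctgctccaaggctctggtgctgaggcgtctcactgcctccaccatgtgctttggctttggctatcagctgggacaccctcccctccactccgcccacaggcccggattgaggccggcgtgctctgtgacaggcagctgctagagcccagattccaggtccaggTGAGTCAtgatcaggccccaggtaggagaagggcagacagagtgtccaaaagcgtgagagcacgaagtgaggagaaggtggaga
CSF1R proximal: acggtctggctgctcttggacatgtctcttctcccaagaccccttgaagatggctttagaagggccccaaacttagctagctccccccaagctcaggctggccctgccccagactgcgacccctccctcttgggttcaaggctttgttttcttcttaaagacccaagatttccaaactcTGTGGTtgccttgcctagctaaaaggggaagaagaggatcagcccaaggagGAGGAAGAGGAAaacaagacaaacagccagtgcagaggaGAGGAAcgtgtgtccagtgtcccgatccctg
The distal window held 1 AP-1 match, at position -34 from the RefSeq start, and neither of the other motifs. The proximal window held TGTGGT at -71 and GAGGAA at -20, -14 and 20, of which the first and second GAGGAA adjoin without sharing a base, and it held no AP-1 match. Of 35116 RefSeq promoter windows of this length, 13.1% held TGTGGT, 27.9% held GAGGAA and 4.95% held TGAGTCA. The matches describe the sequence and are not evidence of binding. CSF1 and IL34 were looked up in the same table and had no entry.

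CSF1R was low but present in both nanoparticle groups and close to the floor under the free antibody. The NR libraries held 76, 56 and 70 counts, or 2.97, 4.03 and 4.37 CPM. The SP libraries held 124, 91 and 56 counts, or 5.70, 3.97 and 2.73 CPM. The Ab libraries held 3, 8 and 3 counts, or 0.154, 0.302 and 0.143 CPM. Every NR and SP library was thus above every Ab library, while the NR and SP values lay among each other. Such separation was common in these data, since in 38.8% of all genes tested every NR library was above every Ab library, and in 39.0% every SP library was. The means were 3.79 ± 0.730 CPM in NR, 4.13 ± 1.49 CPM in SP and 0.200 ± 0.0886 CPM in Ab (SD, n = 3 each).

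By the edgeR fit the log2 fold change of CSF1R was 4.10 (SE 0.33), or 17.1-fold, in NR against Ab and 4.25 (SE 0.36), or 19.1-fold, in SP against Ab. No Ab library reached the minimum of the count filter, so CSF1R entered these fits through NR and SP alone. In order of fold change it stood at place 89 from the top of 15009 genes in the first comparison and at place 81 of 15068 in the second. Summed over libraries, 202 counts in NR and 271 in SP stood against 14 in Ab. The ratio of these sums, scaled for depth, was 17.4 with an exact 95% interval of 10.1 to 32.4 for NR against Ab, and 19.9 with an interval of 11.7 to 36.9 for SP against Ab. Such intervals cover counting error only, and reads without molecular identifiers are not independent molecules. With NR1 as the only NR library the log2 fold change was 3.78 (SE 0.45). In bulk RNA, more cells with the transcript and more transcript per cell cannot be told apart.

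Between the particle shapes CSF1R differed little compared with its spread. The log2 fold change of NR against SP was -0.16 (SE 0.23), and the ratio of summed counts was 0.876 with an exact 95% counting interval of 0.726 to 1.06. SP had the widest range of the groups in CPM, from 2.73 in SP3 to 5.70 in SP1, and this range held all 3 NR values. Without SP1 the log2 fold change turned to 0.15, and without NR1 to 0.03, so its sign was not stable.

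CSF1 (ENSG00000184371, chr1:110452864-110473614, plus strand, GRCh37), the more widely made ligand, was well above the floor in all 9 libraries. The NR libraries held 491, 254 and 290 counts, or 19.2, 18.3 and 18.1 CPM. The SP libraries held 388, 384 and 351 counts, or 17.8, 16.8 and 17.1 CPM. The Ab libraries held 240, 352 and 301 counts, or 12.3, 13.3 and 14.4 CPM. The order NR, SP, Ab held without overlap, but the steps were small beside that of CSF1R. The means were 18.5 ± 0.585, 17.2 ± 0.549 and 13.3 ± 1.05 CPM (SD, n = 3 each). The fitted log2 fold changes were 0.45 (SE 0.09) in NR against Ab, 0.34 (SE 0.09) in SP against Ab and 0.11 (SE 0.08) in NR against SP, equal to 1.37-fold and 1.27-fold for the first and second. In 8.21% of the 14903 genes tested in NR against SP, every NR library was above every SP library.

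IL34 (ENSG00000157368, chr16:70613798-70694585, plus strand, GRCh37), the second ligand, had few counts in every library. The NR libraries held 2, 6 and 2 counts, the SP libraries 9, 7 and 4 counts, and the Ab libraries 0, 1 and 0 counts. All NR and SP libraries had at least 2 counts and no Ab library had more than 1. IL34 did not pass the filter on low counts in any comparison, so its values are ratios of summed counts. Fitted without that filter beyond 1 count, its log2 fold change was 3.24 (SE 1.35) in NR and 3.91 (SE 1.15) in SP against Ab by edgeR. The ratio of summed counts, 10 against 1, was 12.1 with an exact 95% interval of 1.72 to 524 for NR against Ab. For SP against Ab, 20 counts against 1 gave a ratio of 20.6 with an interval of 3.29 to 852. These intervals are wide because the Ab group rests on a single count, and NR against SP gave 0.588 with an interval of 0.246 to 1.32.

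Levels of different genes were compared per kb of exon, by dividing CPM by the summed exon length. On this scale CSF1 was 3.54 ± 0.112 in NR, 3.29 ± 0.105 in SP and 2.54 ± 0.200 in Ab, and CSF1R was 0.736 ± 0.142, 0.802 ± 0.290 and 0.0387 ± 0.0172 CPM per kb (SD, n = 3 each). The level of CSF1 thus exceeded that of its receptor in every library. The ratio of CSF1 to CSF1R was 4.96 ± 1.22 in NR, 4.46 ± 1.57 in SP and 73.5 ± 28.1 in Ab, and in Ab it ranged from 43.3 to 98.7 because the receptor count was 3 to 8. Among detected genes ranked per kb within a library, CSF1R stood at percentile 41.1 to 50.8 in NR and SP libraries and at 6.87 to 15.6 in Ab libraries. CSF1 moved only between percentiles 58.2 and 65.7. Receptor transcript was therefore near the middle of the detected genes in NR and SP and among the lowest in Ab.

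The genes tested beside these members were called when their change reached 2-fold with an adjusted p (edgeR, Benjamini-Hochberg over all genes) no higher than 0.05, and "rose" and "fell" below stand for this call. A gene with too few counts in Ab could enter the fit through NR or SP alone and then had to differ. PDGFRB, PDGFD, ARHGDIB, MARCO, DCN, VWF, CDH1, SLC6A7 and EPS8L3 were such genes, as were COL9A2, MMP28 and CSF1R itself, so their values are given without a p, and counts of called genes that hold them are descriptions. In NR against Ab 22.7% of genes were called, 12.4% higher and 10.3% lower, and in SP against Ab 23.2% were called, 12.6% higher and 10.6% lower. Both comparisons share the Ab libraries, so their likeness is not independent evidence. In NR against SP 0.0201% of genes were called, or 3 genes by edgeR, with 0.443% at the adjusted p alone. These 3 were higher in NR (PBX2, TAF10 and RP11-152F13.3, named after their values were seen). A further measure is the unadjusted p under 0.05, which 1922 genes (12.9%) had, and DESeq2 called 0 genes. Of the 94 genes of the lists below that were tested in NR against SP, edgeR called 0, DESeq2 also called none in any list under the same rule, and 13 had an unadjusted p under 0.05.

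CSF1R belongs to a family of receptor tyrosine kinases with KIT, FLT3, PDGFRA and PDGFRB. PDGFRB, the receptor of PDGF-BB on pericytes and fibroblasts, differed from Ab by a size close to that of CSF1R. It held 320, 150 and 165 counts in the NR libraries, against 256, 272 and 275 for SP and 10, 11 and 8 for Ab, without overlap between either nanoparticle group and Ab. Its log2 fold changes were 4.65 (SE 0.21) in NR and 4.79 (SE 0.20) in SP, both against Ab. Fewer than 3 Ab libraries reached the minimum of the filter. KIT, PDGFRA and FLT3 were not called in either comparison.

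KIT, the receptor of stem cell factor, had NR counts of 167, 1 and 0, SP counts of 160, 189 and 162 and Ab counts of 173, 195 and 139. PDGFRA, the receptor shared by several PDGF ligands, had 58, 0 and 0 counts (NR), 65, 50 and 66 counts (SP) and 60, 72 and 45 counts (Ab). SP and Ab lay in the same range for both genes, with log2 fold changes of 0.02 and 0.05 that did not pass the adjusted p (0.907 and 0.843, edgeR). For NR the libraries disagreed, and neither gene was called with all 3 (adjusted p of 0.297 and 0.292, edgeR). Without NR1 both were called lower than Ab, and with NR1 as the only NR library neither was. FLT3, a receptor of early blood progenitors, had 0 counts in all 9 libraries.

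Among the ligands of these relatives, KITLG, the stem cell factor itself, rose in NR (2.12, SE 0.07, adjusted p = 3.98e-21) and SP (2.14, SE 0.07, adjusted p = 9.84e-21) on the log2 scale by edgeR. It had 1966, 1056 and 1262 NR counts, 1679, 1842 and 1592 SP counts, and 314, 474 and 383 Ab counts. PDGFD, a ligand of PDGFRB, held 35, 28 and 24 counts in the NR libraries, against 34, 34 and 41 for SP and 0, 3 and 0 for Ab. With Ab at the floor, its ratio of summed counts was 35.0 (exact 95% counting interval 11.6 to 173) for NR and 37.3 (12.4 to 184) for SP. PDGFB moved the other way. Its log2 fold change was -1.02 (adjusted p = 1.72e-14, edgeR) in NR, just past the 2-fold limit, and -0.88 (adjusted p = 2.29e-12, edgeR) in SP, just short of it. The NR call was lost without Ab1 (-0.99), with NR1 as the only NR library (-0.98) and with library totals in place of TMM scaling. PDGFA stayed level, with log2 fold changes of -0.06 and -0.10. PDGFC and FLT3LG had at most 9 counts and were not tested. Of the 10 relatives and ligands, 7 were tested and 3 were called higher in each comparison, PDGFRB and PDGFD among them, and PDGFB alone fell, in NR only by the call. The median log2 fold change of the 7 was -0.06 in NR and 0.05 in SP, against -0.0055 and -0.0067 for all genes.

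**Figure D1:**
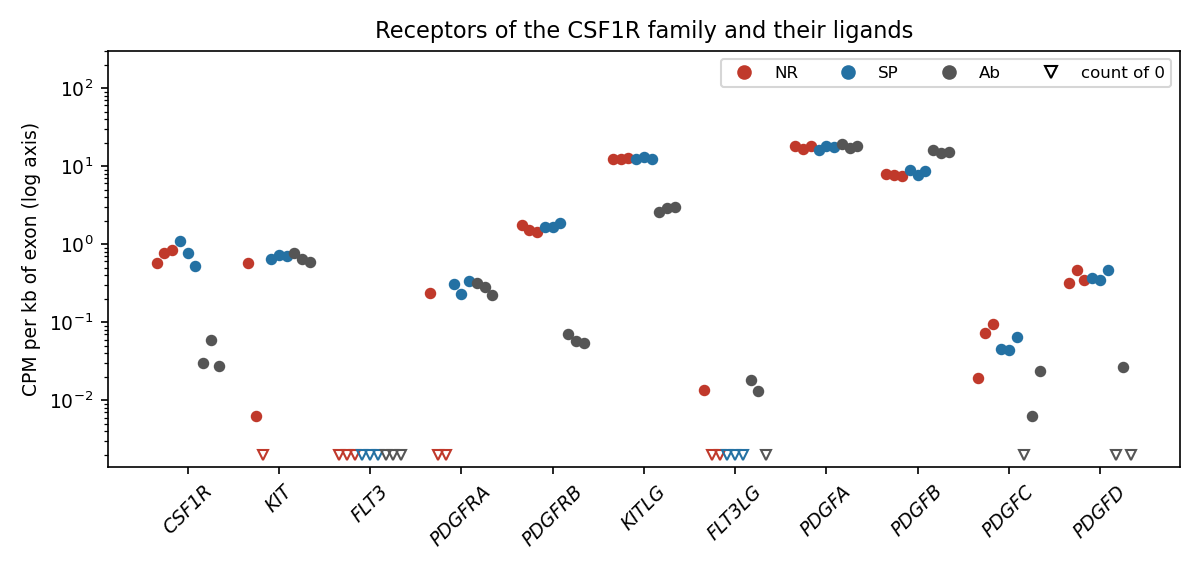
Levels in CPM per kb of exon (log axis) of CSF1R, its relatives KIT, FLT3, PDGFRA and PDGFRB, and their ligands. Each point is a library, coloured by group, and triangles at the base mark counts of 0. PDGFRB and KITLG separate NR and SP from Ab as CSF1R does, whereas KIT and PDGFRA separate NR2 and NR3 from the other 7 libraries.

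Other receptors and factors that meet these ligands or share their name were checked next. SDC1 (syndecan-1), a heparan sulphate proteoglycan that IL34 binds, was abundant at 103 ± 0.298 CPM in NR, 108 ± 3.75 in SP and 93.8 ± 7.17 in Ab (SD, n = 3 each). Its log2 fold changes were 0.11 (adjusted p = 0.0599) and 0.18 (adjusted p = 0.00661) by edgeR, under 2-fold. PTPRZ1, a receptor phosphatase that also binds IL34, had 0 counts throughout. The granulocyte and granulocyte-macrophage factors CSF2 and CSF3, IL3, and the receptor chains CSF2RA, CSF2RB, CSF3R and IL3RA had 0 to 15 counts per library, and none of the 7 was tested.

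The transcripts of proteins that carry the CSF1R signal were largely present, with 33 of 37 tested, and 1 was called. Among all genes tested, 22.7% were called in NR and 23.2% in SP. PLCG2, a phospholipase C best known from blood cells and singled out after its values were seen, had NR counts of 110, 69 and 90, SP counts of 97, 116 and 102 and Ab counts of 41, 61 and 44. On the log2 scale it rose by 1.15 (SE 0.19, adjusted p = 3.25e-06) in NR and 1.12 (SE 0.18, adjusted p = 2.35e-06) in SP by edgeR. Of its exon bases, 22.6% overlap another gene, and with NR1 as the only NR library the NR value was 0.96 and not called. The 4 with the smallest adjusted p in NR against Ab all stayed under 2-fold. SRC, a kinase recruited to the receptor, had log2 fold changes of -0.78 and -0.83 in NR and SP. MAPK3, which encodes the kinase ERK1, had 0.90 and 0.85. PLCG1, the widely expressed relative of PLCG2, had 0.58 and 0.60. By adjusted p alone, 14 of the 33 were higher and 10 lower in NR, while SP had 13 and 10. By this rule 36.4% of all genes were higher and 36.4% lower in NR (72.7% in all), and 36.4% were higher and 36.6% lower in SP (73.0% in all). Over the 33 genes the median was 0.06 log2 units for NR and 0.07 for SP.

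Genes of proteins that restrain the signal went both ways. PTPN6, which encodes the phosphatase SHP-1, known mainly from blood cells and epithelia, had 424, 227 and 256 counts (NR), 420, 414 and 372 counts (SP) and 67, 86 and 82 counts (Ab). It rose by 2.18 (SE 0.12, adjusted p = 3.24e-15) in NR and 2.37 (SE 0.12, adjusted p = 3.29e-16) in SP on the log2 scale (edgeR). INPPL1, the phosphatase SHIP2, fell, with log2 fold changes of -1.16 and -1.08. SOCS3, a suppressor of cytokine signalling, also fell, with -1.14 and -1.22. INPP5D, the SHIP1 of blood cells, had 0 to 8 counts and was not tested. PTPRJ, a receptor phosphatase, had -0.39 and -0.41 and was not called. Of 12 genes 8 were tested, with 1 higher and 2 lower in each comparison, and a median of -0.02 in NR and 0.11 in SP.

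CSF1R is known to be cut from the membrane by ADAM17 and then within the membrane by gamma-secretase. All 10 genes of this machinery were tested and 0 were called by edgeR in either comparison, or by DESeq2. By adjusted p alone, 5 were higher and 4 lower in each. Among all genes, edgeR called 22.7% in NR and 23.2% in SP, and 72.7% and 73.0% passed the adjusted p alone. ADAM17 itself had log2 fold changes of -0.58 (adjusted p = 6.5e-08) in NR and -0.54 (adjusted p = 5.06e-08) in SP by edgeR. RHBDF1 (iRhom1), which carries ADAM17 through the secretory route, had -0.86 and -0.67. ADAM10, a related sheddase, had 0.45 and 0.49. Among subunits of gamma-secretase, PSEN2 (-0.35 and -0.33), NCSTN (0.26 and 0.32), APH1A (0.14 and 0.14) and APH1B (0.58 and 0.75) also passed the adjusted p in both, as did RHBDF2, the iRhom of blood cells (0.57 and 0.48), and PSENEN (0.45 and 0.48) passed it in neither. The median over the 10 genes was 0.20 in NR and 0.23 in SP.

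The factors that drive the CSF1R gene in myeloid cells mostly fell or were too low to test. PU.1 (SPI1), the main one, held 3, 0 and 1 counts in the NR libraries, against 0, 1 and 1 for SP and 0, 2 and 1 for Ab, and IRF8 had 0 in all 9 (both named after their values were seen). RUNX1, whose family binds the TGTGGT core, had NR counts of 747, 452 and 472, SP counts of 690, 772 and 640 and Ab counts of 2712, 3389 and 2710. It fell by 2.15 (SE 0.06, adjusted p = 2.23e-22) in NR and by 2.06 (SE 0.06, adjusted p = 2.18e-21) in SP on the log2 scale (edgeR). RUNX1 was thus lower in the groups where CSF1R was higher, and a link between the 2 genes was not tested. CEBPB, a bZIP factor of myeloid and epithelial cells, fell as well, with log2 fold changes of -1.63 and -1.76. ETS2, which binds an ETS core, had -0.90 and -0.96 and did not reach 2-fold. MITF, a bHLH factor of melanocytes and osteoclasts named after its values were seen, had 0.96 and 0.98 and was called higher in SP without SP3 (1.01) and with library totals.

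The subunits of AP-1 diverged. JUN had 2747, 1479 and 1694 counts (NR), 2510, 2539 and 2381 counts (SP) and 7438, 9364 and 7585 counts (Ab). It fell by 1.80 (SE 0.05, adjusted p = 3.21e-23) in NR and by 1.71 (SE 0.05, adjusted p = 7.76e-22) in SP (log2, edgeR). FOS, its dimer partner, held 528, 294 and 333 counts in the NR libraries, against 388, 544 and 485 for SP and 132, 182 and 134 for Ab, and rose by 1.61 (SE 0.10, adjusted p = 2.18e-14) and 1.67 (SE 0.11, adjusted p = 2.64e-13) by edgeR. Of the 14 factors listed 8 were tested, with 1 higher (FOS) and 4 lower (RUNX1, CEBPB, JUN and ETS1, the last named after its values were seen) in each comparison. ETS1 lay at -1.04 in NR against Ab, and its call there was lost with NR1 as the only NR library (-0.97). The median was -0.97 in NR and -1.01 in SP, against -0.0055 and -0.0067 for all genes.

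Genes that CSF1 is known to induce in macrophages also went both ways. EGR1, an immediate early zinc finger factor, had NR counts of 925, 586 and 658, SP counts of 763, 1001 and 994 and Ab counts of 261, 309 and 253. It rose by 1.66 (SE 0.08, adjusted p = 2.76e-16) and 1.75 (SE 0.10, adjusted p = 2.38e-11) on the log2 scale (edgeR). FOSB, an AP-1 subunit, fell, with log2 fold changes of -2.33 in NR and -2.17 in SP. PLAU, the urokinase-type plasminogen activator, fell too. It had 239, 127 and 163 counts (NR), 229, 246 and 222 counts (SP) and 816, 1026 and 720 counts (Ab), and log2 fold changes of -2.03 and -1.87, and 31.0% of its exon bases overlap another gene. JUNB, MYC and CCND1 stayed under 2-fold, at -0.84, -0.42 and -0.10 in NR and -0.98, -0.52 and -0.00 in SP. JUNB was called lower in SP without Ab2, SP2 or SP3 (-1.04 without SP3). Including FOS and JUN, 9 of 10 were tested, with 2 higher and 3 lower in each comparison and medians of -0.84 and -0.96.

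**Figure D2:**
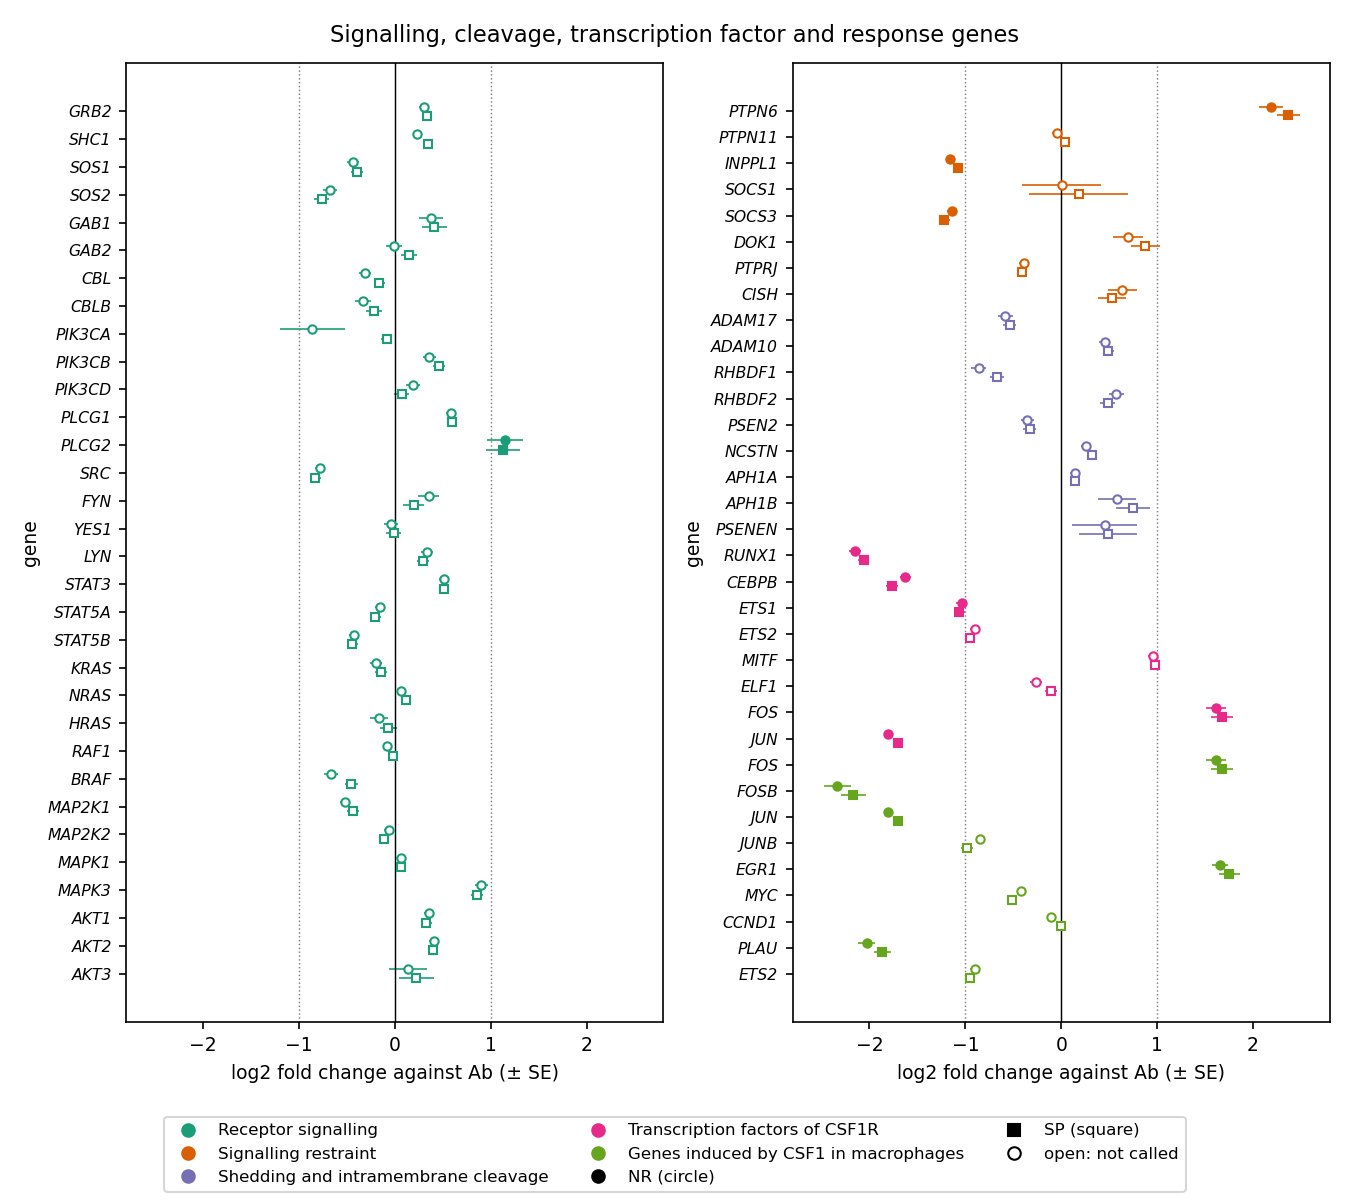
Log2 fold changes (± SE) against Ab of genes of CSF1R signalling, its restraint, receptor cleavage, the transcription factors of CSF1R and the genes CSF1 induces, for NR (circles) and SP (squares). Filled symbols are called genes (2-fold, adjusted p no higher than 0.05), the dotted lines mark 2-fold, and FOS, JUN and ETS2 stand in both of the last 2 lists. PTPN6, FOS and EGR1 lie above the limit, and RUNX1, CEBPB, JUN, FOSB and PLAU below it.

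Since CSF1R is a marker of macrophages, the transcripts of other leukocytes were counted beside it. Of 26 macrophage and monocyte genes, 19 had at most 3 counts in each of the 9 libraries, 8 had 0 in all (CD163, AIF1, C1QA, C1QC, TREM2, VSIG4, CLEC7A and CCR2, named after their values were seen), and none had more than 3 in all. Their summed level was 2.19, 1.73 and 2.37 CPM (NR), 1.98, 1.83 and 2.14 CPM (SP), and 2.36, 1.13 and 1.58 CPM (Ab). These sums overlapped between the groups. CSF1R alone, at 2.73 to 5.70 CPM in NR and SP, was above this whole sum in each of these 6 libraries. CD68 is uncertain, as 85.6% of its exon bases overlap other genes.

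Single macrophage genes differed in both directions at low counts. MARCO, a scavenger receptor with the highest mean CPM of the list over the 9 libraries (not in each of them), held 13, 5 and 11 counts in the NR libraries, against 11, 12 and 15 for SP and 2, 1 and 2 for Ab. It was filtered out in NR against Ab and passed the filter in SP against Ab only through the SP libraries, so no test is given. With at most 2 counts in each Ab library, its ratio of summed counts was 7.81 (exact 95% counting interval 3.07 to 25.4) for SP. SIGLEC1, a sialic acid receptor of tissue macrophages, was singled out after its values were seen, with 14, 5 and 6 counts in NR, 10, 11 and 11 in SP and 0 in every Ab library. CD14, a co-receptor for lipopolysaccharide, went the other way with 2, 7 and 3 NR counts, 4, 1 and 4 SP counts, and 21, 13 and 8 Ab counts. Its log2 fold change in NR was -1.52 by edgeR, and it was called lower. The minimum of the filter was reached by 1 NR library and 2 Ab libraries. CD14 thus entered the fit mainly through the group where it is higher, and no p is given. The call was lost without NR3, without Ab1 and with DESeq2. FCGR1A, an Fc receptor of monocytes also named after its values were seen, had NR counts of 1, 2 and 2, SP counts of 1, 4 and 3 and Ab counts of 11, 2 and 7.

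Of 13 genes used as markers of leukocytes in general, 6 had at most 3 counts in every library, and CD48, LCP2, IKZF1 and ITGAL had 0 in all. PTPRC, which encodes CD45 of all nucleated blood cells, had 1 count in SP2, 1 in SP3 and 0 elsewhere (named, as those with 0, after its values were seen). The summed level of the 13 was 18.9, 17.1 and 17.6 CPM (NR), 17.6, 16.3 and 17.7 CPM (SP), and 11.4, 10.5 and 8.89 CPM (Ab), and thus moved with CSF1R. Much of this sum was ITGB2. Without it the sum was 6.84, 6.62 and 7.25 CPM (NR), 8.09, 6.72 and 7.70 CPM (SP), and 6.97, 4.68 and 4.54 CPM (Ab). Ab1 then lay above NR1, NR2 and SP2. ITGB2, the integrin subunit CD18 and the highest of them in mean CPM over the 9 libraries, had 308, 146 and 166 counts (NR), 207, 220 and 205 counts (SP) and 86, 155 and 91 counts (Ab). Its log2 fold change of 1.14 (adjusted p = 2.64e-08) in NR was called and that of 0.95 (adjusted p = 4.79e-07) in SP was not (edgeR), and the difference between the groups, 0.19, did not pass the test (adjusted p = 0.477, edgeR). Without Ab2 the SP value was 1.12 and called.

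ARHGDIB, a regulator of small GTPases in blood cells that some carcinomas also make, was nearest to CSF1R in size among these markers. It held 43, 24 and 34 counts in the NR libraries, against 58, 54 and 34 for SP and 4, 4 and 1 for Ab, with log2 fold changes of 3.68 (SE 0.42) and 3.97 (SE 0.42). It passed the filter only through NR and SP. WAS, an actin regulator of blood cells, had log2 fold changes of -0.49 and -0.81, and CD37, a tetraspanin of B cells, 0.47 and 0.79, with the SP value called without Ab1 or without SP2 (1.06). Of the 4 leukocyte genes tested, 2 were called higher in NR and 1 in SP, with ARHGDIB in both counts. Among all genes, 12.4% were called higher in NR and 12.6% in SP. Among 14 markers of T, B, NK cells and granulocytes, 9 had at most 3 counts in every library and 1 was tested. The sum of these 14 ranged over 2.31 to 3.17 CPM for NR, 2.67 to 3.51 for SP and 0.868 to 1.08 for Ab. The blood and macrophage markers PTPRC, CD163, AIF1 and TYROBP were at 0 or 1 count in every library. The part of leukocyte transcripts in the CSF1R difference was not tested.

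**Figure D3:**
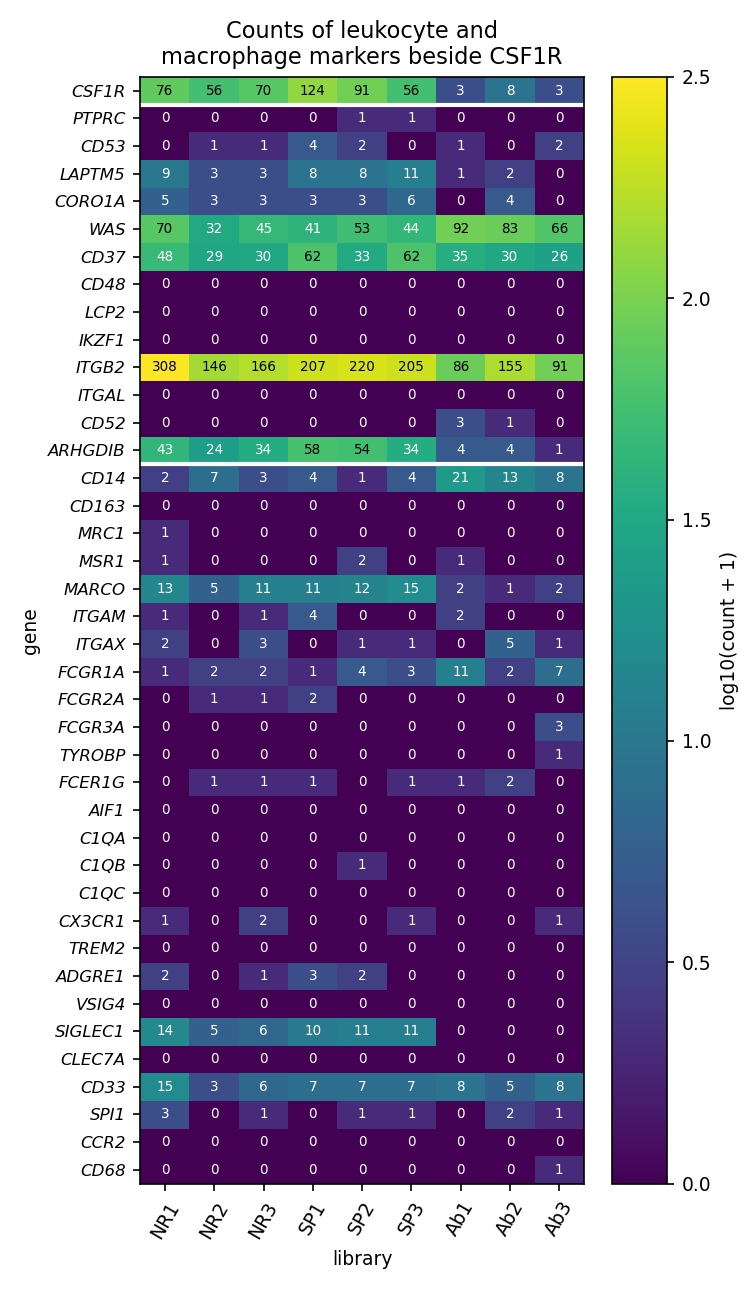
Counts of CSF1R, leukocyte markers and macrophage markers in each library, printed in the cells and coloured by log10(count + 1). CSF1R has 56 to 124 counts in NR and SP beside 0 or 1 count of PTPRC and CD163, and the markers with more than 3 counts in all 9 libraries are WAS, CD37 and ITGB2.

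Of the 7 tested markers of fibroblasts and endothelium, 4 were called higher where CSF1R was higher, DCN and VWF through the NR and SP libraries alone. Among all genes tested, 12.4% were called higher in NR and 12.6% in SP. LUM, a proteoglycan of connective tissue, had 986, 514 and 590 counts (NR), 824, 891 and 802 counts (SP) and 18, 24 and 20 counts (Ab), and was higher on the log2 scale by 5.30 (SE 0.12, adjusted p = 4.73e-24) in NR and 5.35 (SE 0.12, adjusted p = 1.02e-23) in SP (edgeR). DCN, decorin, had 5.14 and 5.23, and CDH5, the cadherin of endothelial junctions, rose by 2.35 in both. VWF, the clotting factor of endothelium, held 34, 21 and 21 counts in the NR libraries, against 28, 33 and 34 for SP and 0, 0 and 1 for Ab, a ratio of summed counts of 91.7 (exact 95% counting interval 16.0 to 3671) for NR and 97.6 (17.1 to 3895) for SP. The collagens did not follow. COL1A1, the highest of the list in mean CPM over the 9 libraries (LUM was higher in the NR mean), had log2 fold changes of 0.63 (adjusted p = 0.13) and 0.72 (adjusted p = 0.0941) by edgeR, COL3A1 had 0.03 and 0.27, and COL1A2 had NR counts of 37, 0 and 0, SP counts of 49, 49 and 43 and Ab counts of 198, 278 and 33. COL1A2 was not called in NR (adjusted p = 0.068) or SP (adjusted p = 0.109) by edgeR, at -3.56 in NR and -1.81 in SP. It was called lower in both without Ab3 (-4.03 and -2.28), in SP also with DESeq2 and in NR also in the joint fit of 9 libraries and with the replicate block. The list has 8 genes in the tables, and their sum was 124, 120 and 116 CPM (NR), 121, 130 and 130 CPM (SP), and 48.4, 45.4 and 22.5 CPM (Ab). This sum moved with CSF1R, and its part in the CSF1R difference was not tested.

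Most epithelial markers were present in all libraries, and several were lower in Ab. KRT8, the keratin of simple epithelia, was the most abundant with 13029 to 47765 counts, and rose by 1.52 in NR and 1.59 in SP against Ab (adjusted p = 6.29e-23 and 3.99e-22, log2, edgeR). CDH1, E-cadherin, had 150, 79 and 88 counts (NR), 134, 159 and 149 counts (SP) and 5, 5 and 9 counts (Ab), with log2 fold changes of 4.27 (SE 0.27) in NR and 4.52 (SE 0.26) in SP. No Ab library reached the minimum of the filter. EPCAM, an adhesion protein of epithelia, rose by 1.68 and 1.60. ELF3, an epithelial ETS factor, had 0.98 and 1.03, on either side of the limit. It was called in NR with NR1 as the only NR library (1.02), without Ab3 and with library totals, and lost the SP call without Ab2 or SP1 (both 0.97). KRT18, the partner of KRT8, had 0.57 and 0.53, CLDN4 and CLDN7, which encode claudins of tight junctions, had 0.09 and -0.13 in NR, and KRT19 had at most 1 count. The Ab libraries thus had little CDH1 transcript, and the sum of the 8 markers was 2389 to 2545 CPM in NR and SP and 947 to 1019 CPM in Ab.

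The genes next to each member on the chromosome were compared with it. PDGFRB, described above, lies on the same strand as CSF1R and ends 466 bases before its distal start. On the other side HMGXB3, an HMG-box gene on the opposite strand, ends 148 bases from the 3′ end of CSF1R. HMGXB3 had log2 fold changes of 0.26 (adjusted p = 0.000134) and 0.31 (adjusted p = 3.91e-05) by edgeR. TIGD6 (-0.07 and 0.12) and SLC26A2, a sulphate transporter (-0.28 and -0.17), were not called either. CDX1, an intestinal homeobox factor beyond PDGFRB, had 0 counts, and SLC6A7, a proline transporter, held 18, 9 and 14 counts in the NR libraries, against 17, 14 and 18 for SP and 4, 10 and 8 for Ab. Its log2 fold changes of 1.14 and 1.16 by edgeR lost the call with DESeq2 and without Ab1, in NR also without NR3, with NR1 as the only NR library and with no filter beyond 1 count, and in SP also without SP3. CSF1R and PDGFRB were thus the pair with changes of over 4 log2 units at this locus. A pseudogene (RPL7P1) and a Y RNA lie within the span of CSF1R, and none of the exon bases of CSF1R (0.0%) overlap another gene. The sources do not say whether counting used strand.

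Around CSF1, GSTM3, a glutathione transferase 169203 bases away, rose by 1.60 and 1.55 on the log2 scale (adjusted p = 4.93e-19 and 4.22e-18, edgeR). EPS8L3, a relative of an actin regulator, had NR counts of 25, 10 and 17, SP counts of 27, 14 and 8 and Ab counts of 0, 1 and 1, a ratio of summed counts of 31.4 (exact 95% counting interval 8.26 to 266) for NR and 25.2 (6.61 to 214) for SP. AHCYL1, a regulator of calcium release, had 0.69 and 0.77 and was not called. GSTM5 was not tested. Around IL34, no tested gene was called: SF3B3, a splicing factor subunit 2224 bases away, had 0.36 and 0.38, MTSS2 had -0.47 and -0.44, and COG4, FCSK and VAC14 lay between -0.09 and 0.22. The neighbours given here thus lay above, below or near 0 beside CSF1 and IL34.

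The genes whose profile over the 9 libraries was most like that of CSF1R were found by the root mean square (RMS) difference of centred log2 CPM, over 15470 genes. C1S, a protease of the classical complement route, was nearest at 0.278, before COL9A2, a collagen chain, at 0.279, CTSV, a lysosomal cathepsin, and MMP28, a matrix metalloprotease, both at 0.319, and DNAJC22, a chaperone of the DnaJ type, at 0.327 log2 units. C1S had 674, 376 and 415 counts (NR), 551, 543 and 468 counts (SP) and 31, 55 and 31 counts (Ab). Like CSF1R it was higher in Ab2 than in Ab1 and Ab3, also in CPM. For CSF1 the nearest were IFT25, a ciliary transport subunit, at 0.032, CACYBP, a partner of S100 proteins, at 0.0365, CLNS1A at 0.0419, the import factor IPO11 at 0.0458 and EIF3F, a subunit of a translation initiation factor, at 0.0474 log2 units. IL34 did not pass the filter over the 9 libraries and has no such list.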

How the data were processed

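Poly-A libraries of 9 SNU5 samples were sequenced. The authors removed adapter and low-quality reads, aligned with HISAT2 (2.1.0, per the submitters' processing notes) to the human genome (hg19, although the notes name mm9) and deposited whole read counts per Ensembl gene, not scaled between libraries. The counter is named differently in 2 places, and the annotation release and strand setting are not given in the sources used here. The notes also name DESeq2 (1.16.1). Names, positions and exon lengths came from a GENCODE annotation lifted to GRCh37, which held 59859 of the 60880 IDs. The others took 0.102% to 0.115% of a library's counts.

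Each pair of groups was fitted on its own 6 libraries with edgeR 4.0.16 (R 4.3.3): TMM, filterByExpr (minimum count 10, minimum total 15) and glmQLFTest with robust quasi-likelihood dispersions, p-values being adjusted by Benjamini-Hochberg. The SE of an edgeR log2 fold change was derived as its absolute value divided by the square root of the F statistic. For the members this SE is a description only. Library totals were 13863155 to 26318227 counts, which set the floor of 3 counts given above. IL34 and genes at the floor were given as ratios of summed counts with exact 95% binomial intervals. Replicate libraries differed by more than counting noise. The steps were tested on simulated counts. Python 3.11.15 (numpy 2.4.6, pandas 2.3.3, scipy 1.17.1, matplotlib 3.10.9) made tables and figures.

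The members and the 13 gene lists (167 genes, 166 in the tables, not PECAM1) were chosen with earlier results of these data known. Named genes were the members, all tested genes of lists of at most 10, the 4 with the smallest adjusted p in NR against Ab of longer lists, markers with more than 3 counts in all 9 libraries, the 3 nearest protein-coding genes on each side, and the 5 most alike profiles. Alternatives were DESeq2 1.42.0, RLE size factors, no filter beyond 1 count, no fold minimum, a joint fit of the 9 libraries, a block for the replicate number, and each library left out. Library totals in place of TMM and NR1 as the only NR library were chosen after seeing the data. Proteomic values were not used here. A few single genes are not reported.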

Additional observations from a re-analysis of the deposited data

How the results depend on the processing

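The direction of CSF1R and CSF1 against Ab held under every alternative run. With 1 library left out, the log2 fold change of CSF1R lay between 3.90 and 4.57 in NR against Ab and between 3.94 and 4.72 in SP against Ab, and that of CSF1 between 0.40 and 0.50 and between 0.29 and 0.39. In NR against SP, CSF1 lay between 0.08 and 0.14 and CSF1R between -0.37 and 0.15, with its sign reversed without NR1 (0.03) and without SP1 (0.15). For IL34 the log2 ratio lay between 2.69 and 4.16 in NR against Ab, between 3.82 and 4.58 in SP against Ab and between -1.67 and -0.20 in NR against SP. With NR1 as the only NR library it was 2.39 against Ab and -1.97 against SP, from 3.59 and -0.77 with all libraries. Without Ab2 all IL34 counts in Ab are 0 and no ratio was formed. At 14 counts of CSF1R and 1 of IL34 in the Ab group, depth limits both folds, and the cause of these shifts was not tested.

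Genes called numbered 3409 in NR against Ab, 3502 in SP against Ab and 3 in NR against SP. Without the fold minimum they were 10916, 11002 and 66, because small changes then count. With 1 library left out they were 3511 to 3634, 3620 to 3718 and 0 to 28. In NR against SP, DESeq2 called 0 and the fit with no filter beyond 1 count called 27. List genes called were 27, 26 and 0, out of 93, 93 and 94 tested, beside 22.7%, 23.2% and 0.0201% of all genes. With 1 library left out they were 26 to 29, 28 to 31 and 0 to 4, the 4 coming without NR1.

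With the replicate number as a block, the log2 fold change of CSF1R was 4.15 in NR against Ab, 4.23 in SP against Ab and -0.14 in NR against SP, and 3414, 3493 and 4 genes were called. Among the named genes, the block changed only the call of COL1A2 in NR against Ab. Deviations of same-numbered libraries from their group means were nearly uncorrelated over genes (-0.032 to 0.028). The labels do not say whether same-numbered libraries were made together, and these correlations cannot decide it.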

Other observations

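The 7 genes low in NR2 and NR3 were SPARC, PDGFRA, KIT, COL1A2, RET, ALK and ENSG00000233995, found by a rule set after the data were seen. They lie on chromosomes 5, 4, 4, 7, 10, 2 and 22. RET, a receptor tyrosine kinase of neural crest cells, held 46, 1 and 0 counts in the NR libraries, against 62, 69 and 58 for SP and 45, 62 and 41 for Ab. ALK, another receptor tyrosine kinase, had NR counts of 150, 0 and 6, SP counts of 154, 193 and 147 and Ab counts of 169, 165 and 141. SPARC, a matrix protein, had 33, 1 and 2 counts (NR), 33, 38 and 27 counts (SP) and 141, 186 and 30 counts (Ab). PIK3CA, the catalytic subunit of PI3-kinase alpha, was lower in the same pair to a lesser degree, with 1062, 274 and 314 NR counts, 1008, 1122 and 995 SP counts, and 972, 1308 and 1065 Ab counts.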
